A study of Mus musculus with 12 samples.

Results

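The genes described here are 47 mouse genes known from macrophages and other myeloid cells, taken by name from a read-count table of 36875 gene symbols. All 47 were found in the table, with the genes now called Adgre1 and Acod1 under their older symbols Emr1 and Irg1. The table holds poly(A)-selected RNA sequencing of cultured fibroblast-like synoviocytes, the fibroblasts of the joint lining, in 12 libraries that form 3 groups of 4. In the resolution group, labelled DOX OFF, doxycycline at 1 mg/ml in 5% sucrose water had been given for 3 weeks and then stopped. In the inflammation group, labelled DOX ON, the same doxycycline and sucrose water was given for 3 weeks. In the homeostasis group, labelled WT, the water held 5% sucrose without doxycycline for 3 weeks. The protocol text describes the cells of every group as coming from mice with TNF-induced inflammatory arthritis. The labels do not give the transgene, the promoter that drives it, the time after withdrawal, the passage of the cultures or the age and sex of the mice, nor whether each library stands for its own mouse or culture. The p-values below therefore measure the spread between these libraries, which may be technical.

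Macrophages are phagocytes that live in or enter the joint, and synovial cultures can carry them along with fibroblasts. They depend on the growth factor receptor Csf1r and the transcription factor PU.1, encoded by Spi1. They recognise antibody-coated, complement-coated and microbial particles through Fc receptors, integrins, lectins and scavenger receptors, many of which signal through short adaptor proteins such as Tyrobp and Fcer1g, and they kill and digest what they take up with the phagocyte NADPH oxidase and lysozyme.

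The libraries held 18120745 to 34971537 counts. Values are given as CPM, counts scaled to library size with edgeR's TMM factors, always in the order of library 1, 2, 3 and 4, with ± marking the SD of 4 libraries for CPM and the standard error for a log2 fold change. The defining fibroblast markers were abundant: 12 of them together reached 15244 to 28721 CPM in resolution, 33853 to 43915 CPM in inflammation and 38628 to 49118 CPM in homeostasis. The 47 myeloid genes together reached 142 to 153 CPM in resolution, 1016 to 1103 CPM in inflammation and 293 to 301 CPM in homeostasis, so that groups did not overlap. In bulk libraries, fewer cells of a type and less RNA per cell cannot be told apart. The Y-linked Ddx3y averaged 0 ± 0 CPM in resolution, 0.0343 ± 0.0685 CPM in inflammation and 23.6 ± 1.82 CPM in homeostasis, while Xist averaged 174 ± 67.0 CPM in resolution, 110.3 ± 35.3 CPM in inflammation and 10.8 ± 3.28 CPM in homeostasis. Comparisons with homeostasis therefore run along with a difference in sex-linked transcripts and the 2 cannot be told apart. Homeostasis also differed from both other groups in its WT label and in having had no doxycycline. These differences cannot be told apart either. The mouse Tnf row averaged 0.308 ± 0.143 CPM in resolution, 1.02 ± 0.518 CPM in inflammation and 3.97 ± 2.20 CPM in homeostasis.

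Of the 47 genes, 41 had enough counts to be tested, and 37 of these would have passed the same filter on the resolution and homeostasis libraries alone. Cd52, Dock2, Cd84 and Ms4a6c passed through their inflammation counts. The 47 genes and the lists below were chosen with earlier results of these data known. Their counts beside the shares of all tested genes are therefore descriptive. In resolution against inflammation, 39 of the 41 were lower and 0 were higher at an adjusted p below 0.05, where 7.64% of 15049 tested genes were lower and 8.52% were higher. Mrc1 and Clec4e did not pass. In inflammation against homeostasis, 36 of the 41 were higher and 0 were lower, where 19.0% of tested genes were higher and 18.3% were lower. Coro1a, Marco, Clec4e, Cyba and Irg1 did not pass. In resolution against homeostasis, 26 were lower and 2 (Cd53 and Trem2) were higher, where 25.8% of tested genes were lower and 27.5% were higher, and 13 did not pass.

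The median log2 fold change of the 41 was -3.53 in resolution against inflammation, where that of all tested genes was 0.02. In inflammation against homeostasis the medians were 1.86 and -0.01, and in resolution against homeostasis -1.46 and -0.01. In resolution against inflammation 34 of the 41 had log2 fold changes below -2 and 17 below -4. The share of all tested genes below these values was not computed, and their lower quartile was -0.24. Every resolution library was below every inflammation library for 39 of the 41 and above for 0, patterns that 9.91% and 8.94% of tested genes had. Every inflammation library was above every homeostasis library for 32 of the 41, against 18.1% of tested genes, and every resolution library was below every homeostasis library for 24, against 21.6%. The most common combination of calls was higher in inflammation than in homeostasis, lower in resolution than in homeostasis and lower in resolution than in inflammation. It held for 22 of the 41 and for 92 of 15049 tested genes (0.611%). The 3 comparisons share their libraries and are not independent of each other.

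**Figure D1:**
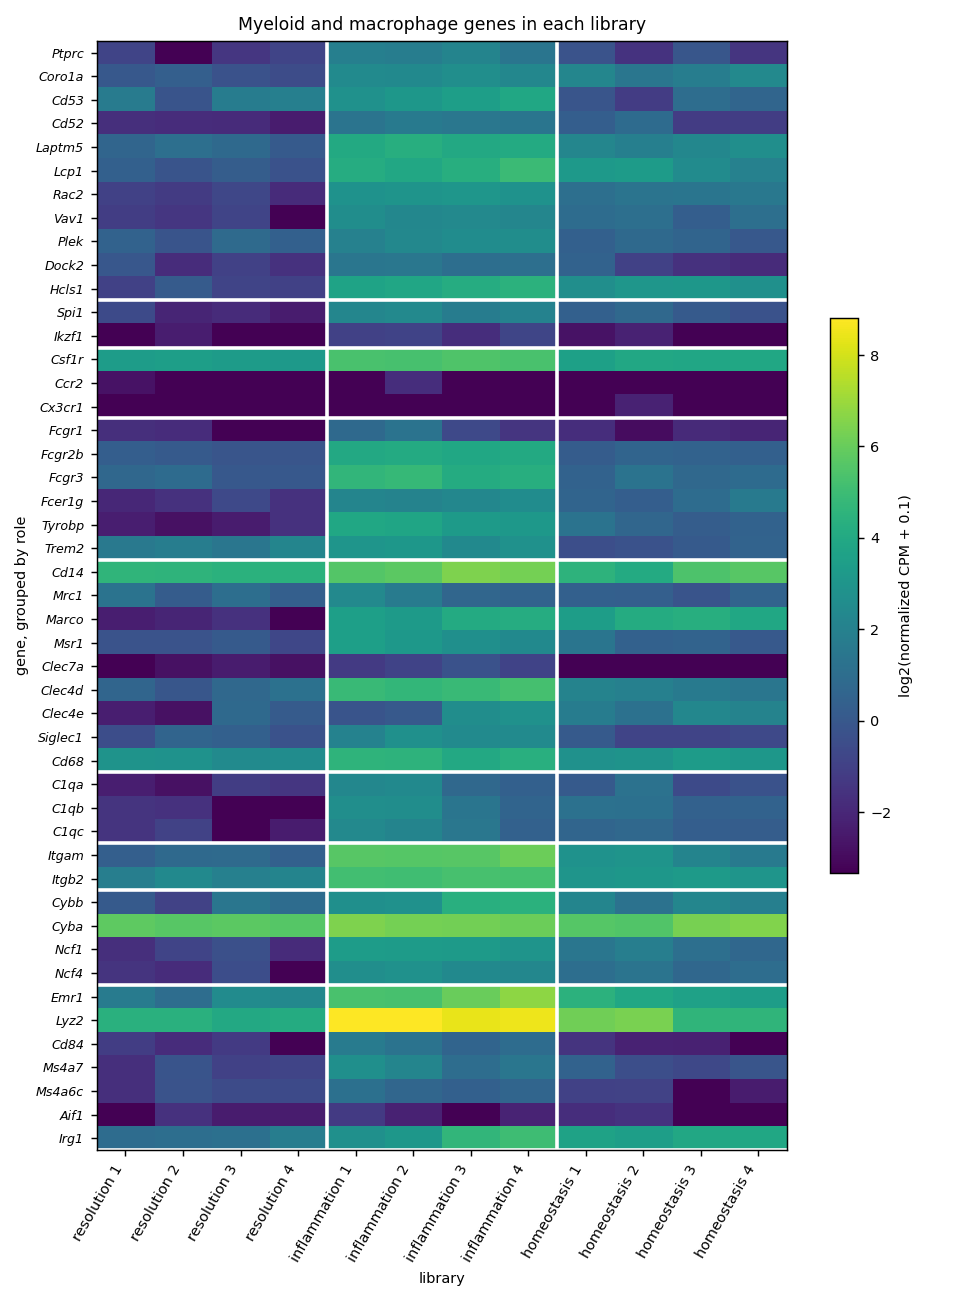
Level of each of the 47 genes (rows, grouped by role) in each of the 12 libraries (columns), as log2(normalized CPM + 0.1) on a colour scale. For 44 of the 47 genes the largest value is in an inflammation library, and Cx3cr1 was counted in homeostasis 2 alone. The share of all genes with their largest value in an inflammation library was not computed.

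**Figure D2:**
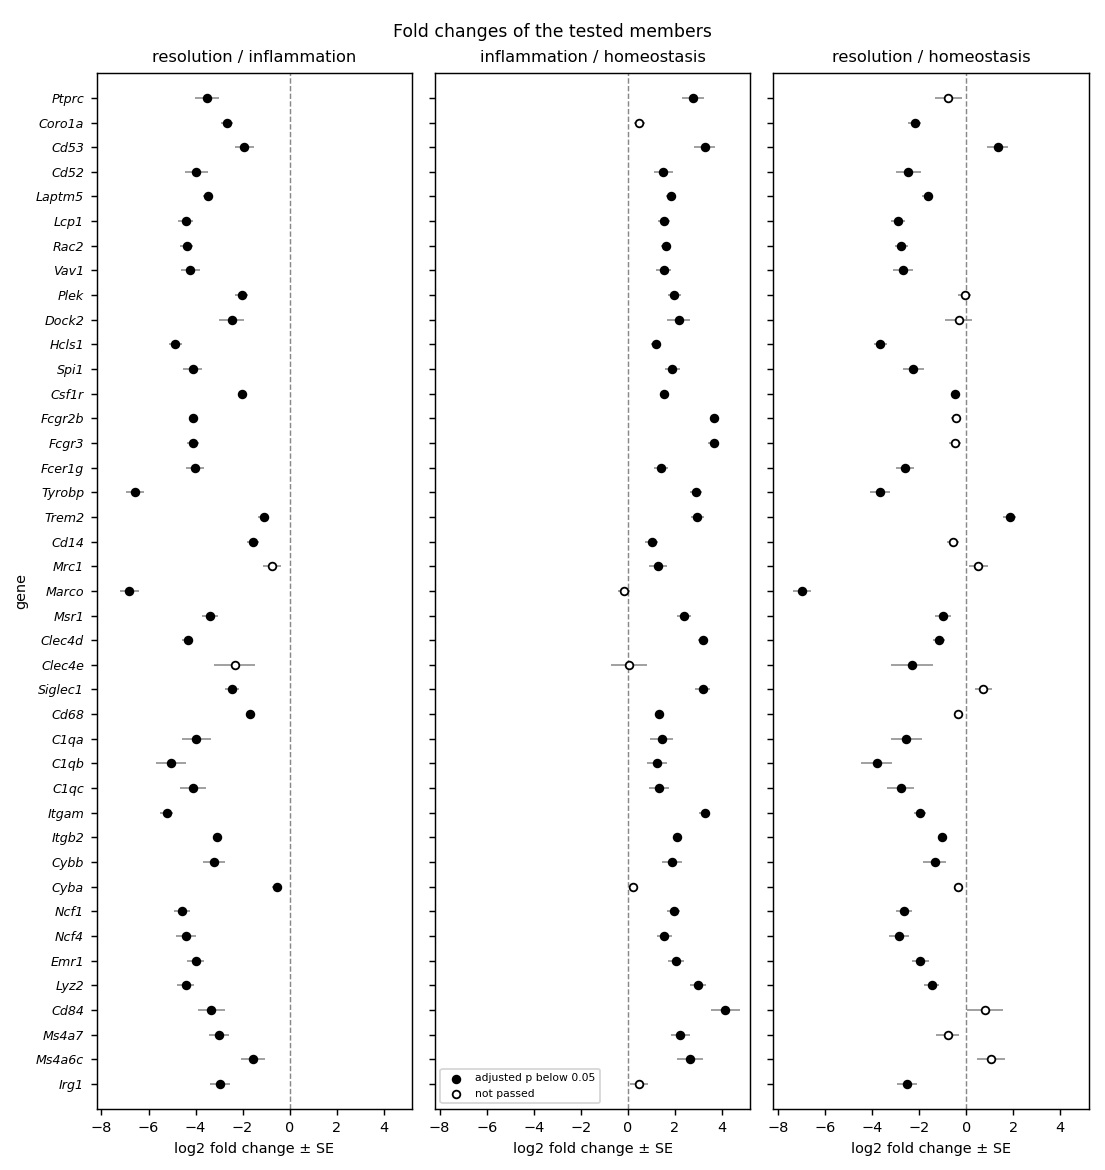
Log2 fold change with its standard error for the 41 tested genes (rows) in resolution against inflammation (left), inflammation against homeostasis (middle) and resolution against homeostasis (right). Filled points had an adjusted p below 0.05; in the left panel all points lie left of 0 and 39 are filled, and in the right panel Cd53 and Trem2 are the filled points right of 0.

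The surface receptor tyrosine phosphatase CD45, encoded by Ptprc, marks all nucleated blood-derived cells and was scarce. Its level was 0.464, 0, 0.272 and 0.462 CPM in the resolution libraries, 3.66, 3.48, 4.31 and 2.52 CPM in the inflammation libraries and 0.761, 0.246, 0.855 and 0.272 CPM in the homeostasis libraries, with inflammation above both other groups. Ptprc was higher in inflammation than in homeostasis (log2 fold change 2.77 ± 0.47, edgeR adjusted p = 0.000130) and lower in resolution than in inflammation (-3.53 ± 0.50, edgeR adjusted p = 6.22e-05). The other 10 genes of this role encode membrane proteins and signalling or cytoskeletal proteins found across blood-derived cells. All 11 were lower in resolution than in inflammation, and 10 of the 11 were higher in inflammation than in homeostasis, the exception being the actin regulator Coro1a.

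Lcp1, which encodes the actin-bundling protein L-plastin, was measured at 1.24, 0.794, 1.09 and 0.739 CPM in the resolution libraries, 18.003, 15.4, 19.4 and 30.3 CPM in the inflammation libraries and 9.09, 9.91, 5.64 and 3.94 CPM in the homeostasis libraries. Its groups did not overlap. Resolution was lowest, with log2 fold changes of -4.43 ± 0.31, edgeR adjusted p = 5.33e-09 against inflammation and -2.89 ± 0.31, edgeR adjusted p = 3.38e-07 against homeostasis. Laptm5, a lysosomal membrane protein of blood-derived cells, stood at 1.44, 2.06, 1.68 and 0.971 CPM in the resolution libraries, 16.2, 19.3, 15.8 and 16.8 CPM in the inflammation libraries and 4.62, 3.69, 4.79 and 6.21 CPM in the homeostasis libraries. Again the 3 groups were separate, with log2 fold changes of -3.46 ± 0.22, edgeR adjusted p = 1.16e-09 for resolution against inflammation and 1.82 ± 0.20, edgeR adjusted p = 8.32e-07 for inflammation against homeostasis.

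Hcls1 encodes an actin-binding substrate of tyrosine kinases. It was measured at 0.412, 1.03, 0.454 and 0.416 CPM in the resolution libraries, 13.1, 14.2, 18.1 and 22.3 CPM in the inflammation libraries and 6.19, 8.13, 8.43 and 6.66 CPM in the homeostasis libraries, without overlap between groups. It fell below homeostasis in resolution by more than most members (log2 fold change -3.65 ± 0.28, edgeR adjusted p = 3.01e-09). Rac2, a small GTPase that activates the phagocyte oxidase, averaged 0.356 ± 0.134 CPM in resolution, 7.53 ± 0.447 CPM in inflammation and 2.44 ± 0.311 CPM in homeostasis. Vav1, an exchange factor for Rac proteins, averaged 0.274 ± 0.196 CPM in resolution, 5.17 ± 0.616 CPM in inflammation and 1.78 ± 0.435 CPM in homeostasis. Both were lower in resolution than in inflammation, with log2 fold changes of -4.38 for Rac2 and -4.22 for Vav1, and lower than in homeostasis, with -2.76 for Rac2 and -2.70 for Vav1.

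The tetraspanin Cd53 went the other way in one comparison. Its level was 3.20, 0.794, 3.31 and 3.65 CPM in the resolution libraries, 6.99, 8.43, 11.2 and 15.0 CPM in the inflammation libraries and 0.812, 0.339, 1.94 and 1.45 CPM in the homeostasis libraries. Resolution library 2 was far below the other resolution libraries and inside the homeostasis range. Cd53 was higher in resolution than in homeostasis (log2 fold change 1.34 ± 0.45, edgeR adjusted p = 0.0178) and lower than in inflammation (-1.92 ± 0.39, edgeR adjusted p = 0.00255). The call against homeostasis was lost without homeostasis library 2 (0.98, edgeR adjusted p = 0.0651) or without resolution library 4 (1.17, edgeR adjusted p = 0.0549), and with homeostasis libraries 3 and 4 as the sole controls (0.71, edgeR adjusted p = 0.239). Coro1a did not pass in inflammation against homeostasis (0.47 ± 0.23, edgeR adjusted p = 0.114), but did without homeostasis library 4 (0.64, edgeR adjusted p = 0.0498). Coro1a averaged 0.856 ± 0.248 CPM in resolution, 5.45 ± 0.627 CPM in inflammation and 3.94 ± 1.13 CPM in homeostasis. Plek (the protein kinase C substrate pleckstrin) averaged 1.25 ± 0.382 CPM in resolution, 5.18 ± 0.989 CPM in inflammation and 1.30 ± 0.321 CPM in homeostasis. Dock2 (a Rac exchange factor) averaged 0.426 ± 0.315 CPM in resolution, 2.35 ± 0.386 CPM in inflammation and 0.532 ± 0.533 CPM in homeostasis. Plek and Dock2 did not pass in resolution against homeostasis.

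Cd52, a small surface glycoprotein, stood at 0.206, 0.187, 0.182 and 0.0924 CPM in the resolution libraries, 2.42, 2.99, 2.74 and 2.52 CPM in the inflammation libraries and 1.12, 1.79, 0.342 and 0.363 CPM in the homeostasis libraries. No 2 groups overlapped, and homeostasis was split, with libraries 1 and 2 above 3 and 4. Cd52 was lower in resolution than in homeostasis (log2 fold change -2.46 ± 0.54, edgeR adjusted p = 0.000730), a call lost with homeostasis libraries 3 and 4 as the sole controls (-1.05, edgeR adjusted p = 0.101). It was higher in inflammation than in homeostasis (1.501 ± 0.40, edgeR adjusted p = 0.00606), a call lost with homeostasis libraries 1 and 2 as the sole controls (0.86, edgeR adjusted p = 0.0607).

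PU.1, encoded by Spi1, is the transcription factor that macrophages need to develop and to express many of their receptor genes. Its transcript was counted at 0.567, 0.140, 0.182 and 0.0924 CPM in the resolution libraries, 4.66, 5.08, 3.33 and 4.02 CPM in the inflammation libraries and 1.22, 1.63, 0.969 and 0.725 CPM in the homeostasis libraries. The 3 groups were separate. Spi1 was lower in resolution than in inflammation (log2 fold change -4.13 ± 0.41, edgeR adjusted p = 6.84e-07) and than in homeostasis (-2.25 ± 0.44, edgeR adjusted p = 0.000258), and higher in inflammation than in homeostasis (1.88 ± 0.33, edgeR adjusted p = 0.000187). The lymphoid and myeloid factor Ikaros, encoded by Ikzf1, was too low to test. It had 0, 2, 0 and 0 counts in the resolution libraries, 9, 11, 4 and 11 counts in the inflammation libraries and 1, 4, 0 and 0 counts in the homeostasis libraries.

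PU.1 binds purine-rich sequences around a GGAA core. The 300-base RefSeq promoter windows (GRCm38.p6, from 250 bases before to 50 after an annotated start) of 35 of the 47 genes were searched on both strands for GAGGAAG, whose reverse complement is CTTCCTC. It was present in 12 of the 35 (34.3%), against 15.4% of 27025 genes with a window. A match describes these letters and is not a binding site, and the absence of one says nothing about the factor. Windows of 4 genes with matches are printed on the gene's own strand, with each match in capitals. Fcgr3 has 2 annotated windows, of which 1 is shown. Itgam, Fcgr3 and Laptm5 are shown as members that were higher in inflammation and Trem2 as one that was also higher in resolution than in homeostasis. The windows lie at chr7:128062390-128062689 (plus strand), chr1:171059345-171059644 (minus strand), chr4:130913066-130913365 (plus strand) and chr17:48346151-48346450 (plus strand).
Itgam: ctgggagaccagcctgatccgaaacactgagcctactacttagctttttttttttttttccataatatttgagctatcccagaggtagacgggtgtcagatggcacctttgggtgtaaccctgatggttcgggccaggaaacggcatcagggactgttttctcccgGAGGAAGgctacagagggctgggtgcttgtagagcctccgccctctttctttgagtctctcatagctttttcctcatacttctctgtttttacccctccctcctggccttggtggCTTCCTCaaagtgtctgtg
Fcgr3: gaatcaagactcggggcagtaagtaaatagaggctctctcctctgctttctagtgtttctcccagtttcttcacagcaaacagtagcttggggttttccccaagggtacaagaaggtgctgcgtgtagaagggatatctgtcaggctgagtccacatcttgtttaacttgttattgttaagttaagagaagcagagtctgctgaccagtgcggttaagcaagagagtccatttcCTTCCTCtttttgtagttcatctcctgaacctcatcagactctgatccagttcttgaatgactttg
Laptm5: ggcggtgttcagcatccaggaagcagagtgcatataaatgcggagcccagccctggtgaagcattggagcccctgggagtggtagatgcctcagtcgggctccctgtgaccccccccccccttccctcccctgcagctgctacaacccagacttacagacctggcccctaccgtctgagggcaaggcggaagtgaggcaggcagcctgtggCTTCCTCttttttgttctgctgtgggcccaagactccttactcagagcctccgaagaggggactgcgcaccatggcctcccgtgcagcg
Trem2: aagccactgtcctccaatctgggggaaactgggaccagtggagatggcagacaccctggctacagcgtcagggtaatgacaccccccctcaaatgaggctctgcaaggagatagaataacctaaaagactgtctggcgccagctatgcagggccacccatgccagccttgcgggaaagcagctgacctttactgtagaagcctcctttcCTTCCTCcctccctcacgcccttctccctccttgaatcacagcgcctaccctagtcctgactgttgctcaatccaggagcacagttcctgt
The Itgam window holds a match on each strand, starting 84 bases before and 31 bases after the annotated start. In Fcgr3 the match begins 16 bases before the start, in Laptm5 39 and in Trem2 41 bases before it, all 3 as the reverse complement.

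Csf1r encodes the receptor for the macrophage growth factors CSF1 and IL-34. Its level was 10.3, 11.1, 9.94 and 9.29 CPM in the resolution libraries, 39.6, 39.3, 44.9 and 39.9 CPM in the inflammation libraries and 11.8, 15.4, 14.3 and 14.8 CPM in the homeostasis libraries. All inflammation libraries were above all others, and all homeostasis libraries above all resolution libraries. The log2 fold change was -2.01 ± 0.14, edgeR adjusted p = 4.79e-09 for resolution against inflammation, 1.54 ± 0.14, edgeR adjusted p = 6.38e-08 for inflammation against homeostasis and -0.47 ± 0.14, edgeR adjusted p = 0.00778 for resolution against homeostasis. Exons of Csf1r and of Hmgxb3 on the opposite strand share 873 bases in the GENCODE annotation of GRCm38. Hmgxb3 averaged 84.3 ± 9.51 CPM in resolution, 98.0 ± 3.25 CPM in inflammation and 114 ± 12.1 CPM in homeostasis, and no strand setting of the counting is given, so reads of this stretch could belong to either gene.

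The chemokine receptors that mark monocytes were near or at 0. Ccr2, the receptor for CCL2, had 1 count in the resolution libraries, 5 in the inflammation libraries, all of them in library 2, and 0 in the homeostasis libraries. Cx3cr1, the fractalkine receptor, had 0 counts in the resolution and inflammation libraries and 4 in the homeostasis libraries, all in library 2. Set against these, the CCL2 transcript Ccl2 averaged 1252 ± 178 CPM in resolution, 1192 ± 27.7 CPM in inflammation and 896 ± 295 CPM in homeostasis.

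The low-affinity Fc gamma receptor III, encoded by Fcgr3 (chr1:171051174-171064935, minus strand), binds IgG complexes and activates the cell. Its level was 1.55, 1.82, 0.908 and 0.924 CPM in the resolution libraries, 24.99, 27.9, 17.5 and 19.6 CPM in the inflammation libraries and 1.32, 2.37, 1.60 and 1.77 CPM in the homeostasis libraries. Inflammation stood apart from both other groups, while resolution and homeostasis overlapped. Fcgr3 was lower in resolution than in inflammation (log2 fold change -4.11 ± 0.25, edgeR adjusted p = 6.01e-10) and higher in inflammation than in homeostasis (3.64 ± 0.24, edgeR adjusted p = 1.59e-09). Resolution against homeostasis did not pass (-0.47 ± 0.27, edgeR adjusted p = 0.149), except without resolution library 2 (-0.69, edgeR adjusted p = 0.0472).

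Fcgr2b (chr1:170958617-170976547, minus strand) lies on the same chromosome and encodes the inhibitory Fc gamma receptor. It was measured at 1.13, 0.981, 0.817 and 0.832 CPM in the resolution libraries, 16.0, 16.7, 14.9 and 16.6 CPM in the inflammation libraries and 1.07, 1.39, 1.31 and 1.22 CPM in the homeostasis libraries. The ratio of the highest to the lowest inflammation library was the smallest of the 41 tested genes, at 1.12. Its log2 fold changes were close to those of Fcgr3: -4.09 ± 0.19, edgeR adjusted p = 7.79e-11 for resolution against inflammation and 3.67 ± 0.19, edgeR adjusted p = 5.62e-11 for inflammation against homeostasis. Fcgr2b averaged 0.941 ± 0.148 CPM in resolution, against 1.25 ± 0.137 CPM in homeostasis, and did not pass in that comparison (log2 fold change -0.42 ± 0.21, edgeR adjusted p = 0.108). Fcgr1, the high-affinity receptor, was too low to test, with 8 counts in resolution, 111 in inflammation and 11 in homeostasis, and its inflammation counts were uneven, at 36, 58, 11 and 6.

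The adaptor genes Tyrobp and Fcer1g were lower in resolution than in both other groups. Tyrobp (DAP12; chr7:30413760-30417585, plus strand) carries the activating ITAM motif for Trem2 and related receptors. It stood at 0.103, 0.0467, 0.0908 and 0.231 CPM in the resolution libraries, 14.7, 13.8, 9.79 and 8.62 CPM in the inflammation libraries and 2.34, 1.51, 1.08 and 1.31 CPM in the homeostasis libraries. The 3 groups were separate, and the resolution libraries held 2, 1, 2 and 5 counts. The log2 fold change was -6.56 ± 0.37, edgeR adjusted p = 3.66e-10 for resolution against inflammation and -3.66 ± 0.42, edgeR adjusted p = 8.26e-07 for resolution against homeostasis. The other adaptor, Fcer1g (the common Fc receptor gamma chain), averaged 0.291 ± 0.173 CPM in resolution, 4.84 ± 0.770 CPM in inflammation and 1.83 ± 0.793 CPM in homeostasis. Resolution was lower than inflammation (-4.01 ± 0.37, edgeR adjusted p = 3.01e-07) and than homeostasis (-2.60 ± 0.39, edgeR adjusted p = 1.63e-05).

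Trem2, a lipid-sensing receptor that signals through Tyrobp, had another order of groups. Its level was 2.89, 3.46, 2.59 and 4.44 CPM in the resolution libraries, 8.04, 8.60, 5.24 and 6.89 CPM in the inflammation libraries and 0.660, 0.739, 0.969 and 1.36 CPM in the homeostasis libraries. No 2 groups overlapped, and homeostasis was lowest. Trem2 was higher in resolution than in homeostasis (log2 fold change 1.85 ± 0.27, edgeR adjusted p = 1.35e-05), the only member for which every resolution library was above every homeostasis library, a pattern that 21.9% of tested genes had. It was still lower in resolution than in inflammation (-1.11 ± 0.24, edgeR adjusted p = 0.00317). Per kilobase of exon, the receptor Trem2 and its adaptor Tyrobp stood at 0.676 and 0.177 CPM in resolution, 1.45 and 17.6 CPM in inflammation, and 0.188 and 2.34 CPM in homeostasis.

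**Figure D3:**
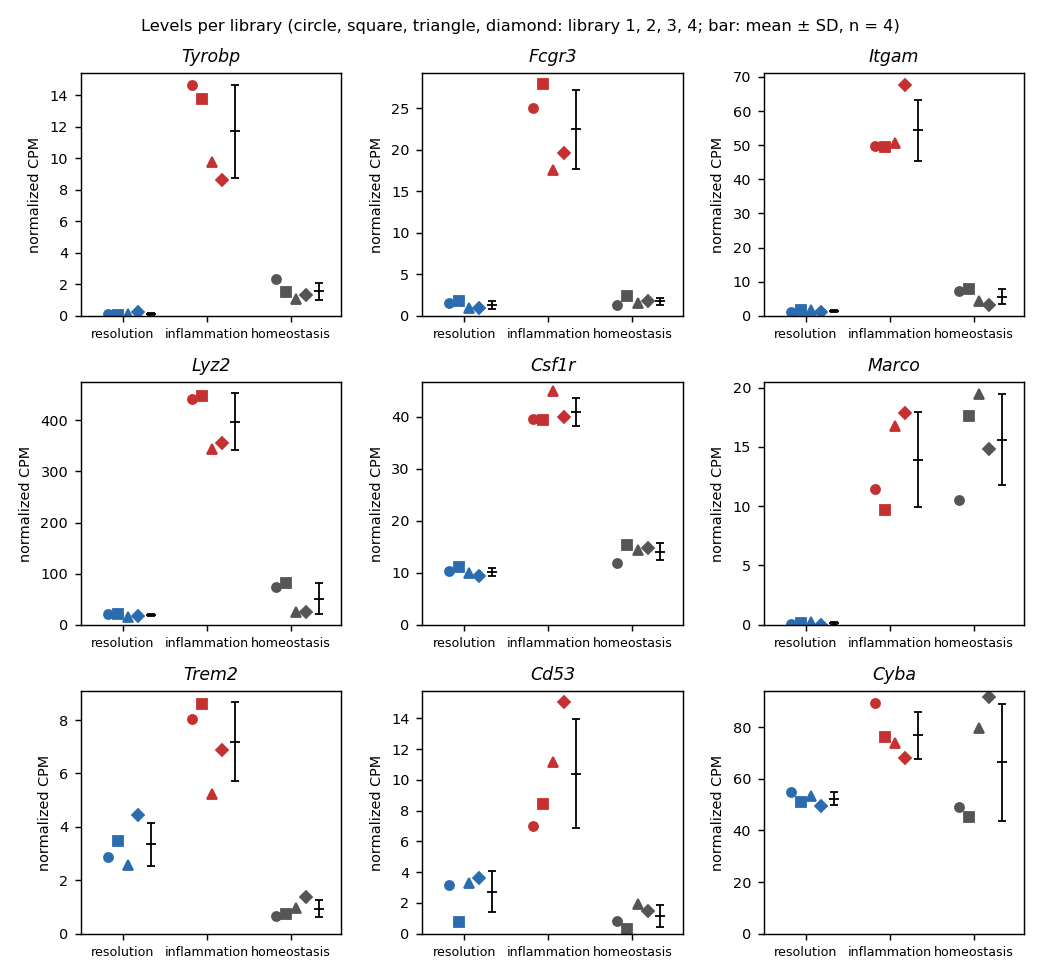
Normalized CPM (vertical axes, starting at 0) of 9 genes in the 4 libraries of resolution, inflammation and homeostasis, with the mean and SD of 4 libraries beside the points. Tyrobp, Fcgr3, Itgam, Lyz2 and Csf1r are highest in inflammation without overlap; Marco is near 0 in resolution alone, Trem2 and Cd53 have homeostasis as the lowest mean, and Cyba differs least.

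The lipopolysaccharide co-receptor Cd14 had the highest inflammation level per kilobase of exon among these receptors (38.6 CPM). It stood at 24.1, 23.8, 21.2 and 21.4 CPM in the resolution libraries, 46.7, 54.3, 89.5 and 76.7 CPM in the inflammation libraries and 23.2, 16.8, 43.0 and 50.2 CPM in the homeostasis libraries. Resolution was below all inflammation libraries, and homeostasis was split, with libraries 1 and 2 in or below the resolution range and libraries 3 and 4 above it. Cd14 was lower in resolution than in inflammation (log2 fold change -1.56 ± 0.27, edgeR adjusted p = 0.000491) and higher in inflammation than in homeostasis (1.01 ± 0.26, edgeR adjusted p = 0.00560), where the value was 0.54 and no longer passed with homeostasis libraries 3 and 4 as the sole controls (edgeR adjusted p = 0.050003). Resolution against homeostasis did not pass (-0.56 ± 0.27, edgeR adjusted p = 0.0850). It passed without homeostasis library 1 (-0.68, edgeR adjusted p = 0.0412) or 2 (-0.77, edgeR adjusted p = 0.00877), and with homeostasis libraries 1 and 2 as the sole controls the value was 0.17. With libraries 3 and 4 as the sole controls it passed (-1.03, edgeR adjusted p = 0.000278). Cd68, a lysosomal glycoprotein of macrophages, stood at 7.32, 7.05, 5.54 and 5.78 CPM in the resolution libraries, 23.4, 23.1, 15.8 and 20.1 CPM in the inflammation libraries and 6.90, 7.48, 9.91 and 8.47 CPM in the homeostasis libraries. Inflammation was above both other groups, which overlapped, with log2 fold changes of -1.68 ± 0.18, edgeR adjusted p = 1.49e-06 for resolution against inflammation and 1.33 ± 0.17, edgeR adjusted p = 7.15e-06 for inflammation against homeostasis.

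Clec4d and Clec4e are neighbours on chromosome 6, at chr6:123262111-123275265 on the plus strand and chr6:123281789-123289870 on the minus strand, and encode C-type lectins that recognise microbial glycolipids. Clec4d stood at 1.44, 0.841, 1.59 and 2.22 CPM in the resolution libraries, 30.1, 26.1, 29.9 and 38.0 CPM in the inflammation libraries and 4.16, 3.82, 3.02 and 2.63 CPM in the homeostasis libraries, with 3 separate groups. It was lower in resolution than in inflammation (log2 fold change -4.34 ± 0.24, edgeR adjusted p = 3.24e-10) and higher in inflammation than in homeostasis (3.18 ± 0.22, edgeR adjusted p = 2.61e-09). Clec4e stood at 0.103, 0.0467, 1.68 and 1.02 CPM in the resolution libraries, 0.777, 0.942, 6.17 and 6.98 CPM in the inflammation libraries and 3.35, 2.19, 4.79 and 4.26 CPM in the homeostasis libraries. Libraries 1 and 2 of resolution and of inflammation were well below libraries 3 and 4 of their group. In inflammation against homeostasis Clec4e did not pass (0.04 ± 0.76, edgeR adjusted p = 0.977).

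Clec4e did not pass in resolution against inflammation either (log2 fold change -2.35 ± 0.88, edgeR adjusted p = 0.0933), but did with the replicate number as a block in these 2 groups (-2.51, edgeR adjusted p = 1.6e-06) and without inflammation library 1 (-2.69, edgeR adjusted p = 0.0468). It was lower in resolution than in homeostasis (-2.31 ± 0.88, edgeR adjusted p = 0.0446). That call was lost without any 1 of homeostasis libraries 1, 3 and 4 or resolution libraries 1, 2 and 4, where the edgeR adjusted p was at least 0.0620.

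The scavenger receptor Marco binds bacteria and particles. Its level was 0.103, 0.140, 0.227 and 0 CPM in the resolution libraries, 11.4, 9.66, 16.7 and 17.9 CPM in the inflammation libraries and 10.6, 17.6, 19.4 and 14.8 CPM in the homeostasis libraries. Inflammation and homeostasis overlapped, and resolution stood apart, with 2, 3, 5 and 0 counts. Marco was lower in resolution than in inflammation (log2 fold change -6.81 ± 0.40, edgeR adjusted p = 4.19e-10) and than in homeostasis (-6.98 ± 0.40, edgeR adjusted p = 5.00e-11), the lowest of the 41 in both comparisons. In inflammation against homeostasis it did not pass (-0.17 ± 0.24, edgeR adjusted p = 0.610) and was the only member with a negative value. Msr1, the scavenger receptor for modified lipoproteins, averaged 0.757 ± 0.200 CPM in resolution, 8.00 ± 2.71 CPM in inflammation and 1.53 ± 0.695 CPM in homeostasis, and was lower in resolution than in inflammation (-3.39 ± 0.33, edgeR adjusted p = 4.71e-07). Its call against homeostasis (-0.99 ± 0.35, edgeR adjusted p = 0.0215) was lost without homeostasis library 1 (-0.65, edgeR adjusted p = 0.116) or resolution library 4 (-0.84, edgeR adjusted p = 0.0726).

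Mrc1, the mannose receptor, was the member least different between resolution and inflammation after Cyba. It stood at 2.37, 1.07, 2.00 and 1.16 CPM in the resolution libraries, 5.12, 3.15, 1.52 and 1.37 CPM in the inflammation libraries and 1.22, 1.17, 0.798 and 1.36 CPM in the homeostasis libraries. Inflammation libraries 1 and 2 were high, and libraries 3 and 4 were within the resolution range. Resolution against inflammation did not pass (log2 fold change -0.76 ± 0.38, edgeR adjusted p = 0.169), nor did resolution against homeostasis (0.52 ± 0.40, edgeR adjusted p = 0.283). Inflammation against homeostasis passed (1.28 ± 0.39, edgeR adjusted p = 0.0137), but not without inflammation library 1 (0.84, edgeR adjusted p = 0.0943) or with either pair of homeostasis libraries as the sole controls (1.23 and 1.38, edgeR adjusted p = 0.0574 and 0.0539).

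Siglec1, a sialic-acid-binding receptor of macrophages, was measured at 0.618, 1.40, 1.23 and 0.739 CPM in the resolution libraries, 4.02, 6.71, 5.44 and 5.52 CPM in the inflammation libraries and 0.965, 0.462, 0.456 and 0.544 CPM in the homeostasis libraries. Inflammation was above both other groups, which overlapped. Siglec1 was lower in resolution than in inflammation (log2 fold change -2.43 ± 0.30, edgeR adjusted p = 9.49e-06). Resolution against homeostasis did not pass (0.74 ± 0.34, edgeR adjusted p = 0.0773), though it did without homeostasis library 1 (1.04, edgeR adjusted p = 0.0211) or resolution library 1 (0.91, edgeR adjusted p = 0.0380). Clec7a (Dectin-1), the receptor for fungal beta-glucan, was too low to test, with 0, 1, 2 and 1 counts in resolution, 7, 11, 15 and 10 counts in inflammation and 0 counts in homeostasis.

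C1q, the recognition protein of the classical complement pathway, is made of 3 chains whose genes lie side by side on the minus strand of chromosome 4: C1qb at chr4:136880129-136886187, C1qc at chr4:136889804-136893065 and C1qa at chr4:136895917-136898803. C1qb stood at 0.258, 0.234, 0 and 0 CPM in the resolution libraries, 6.35, 5.98, 2.55 and 1.41 CPM in the inflammation libraries and 2.18, 2.09, 1.25 and 1.31 CPM in the homeostasis libraries. C1qa stood at 0.103, 0.0467, 0.363 and 0.277 CPM in the resolution libraries, 4.75, 5.28, 1.62 and 1.24 CPM in the inflammation libraries and 0.965, 2.31, 0.570 and 0.725 CPM in the homeostasis libraries. C1qc stood at 0.258, 0.420, 0 and 0.0924 CPM in the resolution libraries, 5.07, 4.38, 2.74 and 1.28 CPM in the inflammation libraries and 1.47, 1.60, 1.14 and 1.09 CPM in the homeostasis libraries. For all 3, the resolution libraries were below all others, and inflammation libraries 1 and 2 were above 3 and 4. Inflammation library 4 lay in the homeostasis range for each chain, and library 3 did so for C1qa.

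All 3 chains were lower in resolution than in inflammation, with log2 fold changes of -5.03 ± 0.63, edgeR adjusted p = 1.31e-05 for C1qb, -3.97 ± 0.61, edgeR adjusted p = 0.000148 for C1qa and -4.11 ± 0.54, edgeR adjusted p = 2.54e-05 for C1qc. They were also lower in resolution than in homeostasis, at -3.79, -2.54 and -2.78. In inflammation against homeostasis they were higher, at 1.24 ± 0.44, edgeR adjusted p = 0.0329 for C1qb, 1.44 ± 0.48, edgeR adjusted p = 0.0249 for C1qa and 1.33 ± 0.42, edgeR adjusted p = 0.0175 for C1qc. These 3 calls were lost when some single libraries were left out, though the values stayed above 0. C1qb lost its call without homeostasis library 3 or 4 or inflammation library 1 or 2 (0.96 to 1.14, edgeR adjusted p 0.0765 to 0.136), C1qa without homeostasis library 1, 3 or 4 or inflammation library 1 or 2 (1.11 to 1.37, edgeR adjusted p 0.0556 to 0.113), and C1qc without inflammation library 1 or 2 (1.08 and 1.20, edgeR adjusted p = 0.0803 and 0.0594). With homeostasis libraries 1 and 2 as the sole controls none of the 3 passed (0.94 to 1.13, edgeR adjusted p 0.110 to 0.237), and with libraries 3 and 4 C1qb did not (1.69, edgeR adjusted p = 0.0543). With DESeq2 on all libraries C1qb did not pass either.

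Itgam (chr7:128062640-128118491, plus strand) and Itgb2 (chr10:77530252-77565708, plus strand) encode the alpha M and beta 2 chains that form Mac-1, the integrin receptor for complement-coated particles. Itgam was measured at 1.19, 1.68, 1.72 and 1.20 CPM in the resolution libraries, 49.8, 49.3, 50.7 and 67.7 CPM in the inflammation libraries and 7.26, 7.79, 4.39 and 3.13 CPM in the homeostasis libraries. No 2 groups overlapped, and inflammation library 4 was above the other 3 inflammation libraries. Itgam was lower in resolution than in inflammation (log2 fold change -5.22 ± 0.27, edgeR adjusted p = 1.51e-10) and than in homeostasis (-1.96 ± 0.26, edgeR adjusted p = 4.76e-06), and higher in inflammation than in homeostasis (3.26 ± 0.24, edgeR adjusted p = 4.21e-09). In the annotation, 3450 exonic bases of Itgam are shared with a predicted gene on the same strand, Gm49368.

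Itgb2 stood at 3.505, 5.32, 3.77 and 4.39 CPM in the resolution libraries, 34.5, 33.9, 38.5 and 37.9 CPM in the inflammation libraries and 7.97, 8.53, 9.74 and 7.93 CPM in the homeostasis libraries, again with 3 separate groups. Its log2 fold changes were nearer 0 than those of its partner: -3.09 ± 0.17, edgeR adjusted p = 2.00e-10 for resolution against inflammation, 2.08 ± 0.16, edgeR adjusted p = 6.25e-09 for inflammation against homeostasis and -1.005 ± 0.16, edgeR adjusted p = 3.76e-05 for resolution against homeostasis. Per kilobase of exon the levels of the alpha M and beta 2 chains were 0.288 and 1.39 CPM in resolution, 10.8 and 11.9 CPM in inflammation, and 1.12 and 2.80 CPM in homeostasis.

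The phagocyte NADPH oxidase makes superoxide with a membrane pair, Cybb (gp91-phox) and Cyba (p22-phox), and cytosolic subunits that include Ncf1 (p47-phox) and Ncf4 (p40-phox). Cyba, which also serves oxidases of other cell types, stood at 55.0, 51.0, 53.3 and 49.3 CPM in the resolution libraries, 89.1, 76.2, 73.7 and 68.0 CPM in the inflammation libraries and 48.9, 45.3, 79.6 and 91.5 CPM in the homeostasis libraries. All resolution libraries were below all inflammation libraries. Homeostasis spanned both, with libraries 1 and 2 below every resolution library and libraries 3 and 4 above most inflammation libraries. Cyba was lower in resolution than in inflammation (log2 fold change -0.56 ± 0.18, edgeR adjusted p = 0.0441), the value nearest 0 of the 41. That call was lost without any 1 of inflammation libraries 1, 2 and 3 or resolution libraries 1, 3 and 4 (edgeR adjusted p 0.0698 to 0.129) and when the replicate number entered as a block in all 3 groups (edgeR adjusted p = 0.0681). Against homeostasis, inflammation (0.21 ± 0.18, edgeR adjusted p = 0.382) and resolution (-0.35 ± 0.18, edgeR adjusted p = 0.119) did not pass. Resolution did pass without homeostasis library 1 (-0.46, edgeR adjusted p = 0.0433) or 2 (-0.48, edgeR adjusted p = 0.0210), while the sign changed to 0.14 with homeostasis libraries 1 and 2 as the sole controls. With libraries 3 and 4 as the sole controls resolution passed (-0.705, edgeR adjusted p = 0.000311), and for inflammation the sign changed to -0.13.

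Cybb was measured at 0.979, 0.420, 2.59 and 1.85 CPM in the resolution libraries, 6.53, 7.00, 19.7 and 21.1 CPM in the inflammation libraries and 4.52, 2.31, 4.67 and 3.63 CPM in the homeostasis libraries. Inflammation libraries 3 and 4 were about 3 times as high as libraries 1 and 2. Cybb was lower in resolution than in inflammation (log2 fold change -3.20 ± 0.47, edgeR adjusted p = 0.000144) and higher in inflammation than in homeostasis (1.86 ± 0.43, edgeR adjusted p = 0.00250). The second call was lost with homeostasis libraries 1 and 2 (2.02, edgeR adjusted p = 0.0528) or 3 and 4 (1.74, edgeR adjusted p = 0.0597) as the sole controls. Its call in resolution against homeostasis (-1.34 ± 0.47, edgeR adjusted p = 0.0244) was lost without any 1 of homeostasis libraries 1, 3 and 4 or resolution libraries 1 and 2 (-1.35 to -1.03, edgeR adjusted p 0.0513 to 0.0725). The cytosolic subunits were more even within inflammation. Ncf1 stood at 0.206, 0.467, 0.681 and 0.185 CPM in the resolution libraries, 10.4, 10.0, 9.70 and 7.69 CPM in the inflammation libraries and 2.59, 3.51, 2.05 and 1.54 CPM in the homeostasis libraries, with no overlap and a log2 fold change of -4.58 ± 0.33, edgeR adjusted p = 7.22e-09 in resolution against inflammation. Ncf4 averaged 0.270 ± 0.267 CPM in resolution, 5.82 ± 0.954 CPM in inflammation and 1.97 ± 0.380 CPM in homeostasis and was also lower in that comparison (-4.39 ± 0.42, edgeR adjusted p = 4.74e-07). Both were also lower in resolution than in homeostasis, at -2.64 and -2.85.

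Lyz2, the lysozyme of macrophages and neutrophils, had the highest inflammation level per kilobase of exon of the members (302 CPM). Its level was 20.5, 20.4, 15.8 and 17.6 CPM in the resolution libraries, 442, 448, 344 and 356 CPM in the inflammation libraries and 73.4, 81.5, 24.8 and 24.1 CPM in the homeostasis libraries. All resolution libraries were below all homeostasis libraries, and all of those below inflammation, but homeostasis libraries 1 and 2 were about 3 times as high as 3 and 4. Lyz2 was lower in resolution than in inflammation (log2 fold change -4.42 ± 0.36, edgeR adjusted p = 5.46e-07) and than in homeostasis (-1.46 ± 0.33, edgeR adjusted p = 0.00144), and higher in inflammation than in homeostasis (2.96 ± 0.34, edgeR adjusted p = 6.06e-06). It made up 10.7 to 13.9% of the summed level of the 47 genes in resolution, 32.3 to 43.0% in inflammation and 8.02 to 27.8% in homeostasis. Without Lyz2 the summed level was 124 to 133 CPM in resolution, 595 to 747 CPM in inflammation and 212 to 277 CPM in homeostasis, so the groups still did not overlap. The near-identical Lyz1 averaged 1.96 ± 0.677 CPM in resolution, 35.8 ± 6.11 CPM in inflammation and 4.25 ± 2.90 CPM in homeostasis, and reads could be split between these paralogs.

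Emr1 encodes F4/80, the surface protein by which mouse macrophages are commonly recognised. It stood at 3.20, 1.92, 5.58 and 4.95 CPM in the resolution libraries, 39.8, 38.4, 65.1 and 107 CPM in the inflammation libraries and 22.4, 15.0, 12.3 and 10.7 CPM in the homeostasis libraries. The groups did not overlap, and inflammation library 4 was highest. Emr1 was lower in resolution than in inflammation (log2 fold change -3.997 ± 0.37, edgeR adjusted p = 1.05e-06) and than in homeostasis (-1.94 ± 0.36, edgeR adjusted p = 0.000217), and higher in inflammation than in homeostasis (2.05 ± 0.34, edgeR adjusted p = 0.000149). Irg1, the enzyme that makes itaconate in activated macrophages, stood at 1.86, 1.96, 2.13 and 3.37 CPM in the resolution libraries, 6.67, 8.52, 25.4 and 33.3 CPM in the inflammation libraries and 12.5, 11.1, 15.3 and 14.8 CPM in the homeostasis libraries. Its inflammation libraries 1 and 2 were below all homeostasis libraries and its libraries 3 and 4 above them, and the comparison did not pass (0.46 ± 0.37, edgeR adjusted p = 0.349). Resolution was lower than inflammation (-2.98 ± 0.42, edgeR adjusted p = 0.000128) and than homeostasis (-2.52 ± 0.42, edgeR adjusted p = 0.000101).

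The remaining surface markers were low. Cd84, a receptor of the SLAM family, was measured at 0.361, 0.187, 0.318 and 0 CPM in the resolution libraries, 3.20, 2.33, 1.42 and 1.86 CPM in the inflammation libraries and 0.254, 0.123, 0.114 and 0 CPM in the homeostasis libraries, with inflammation apart from 2 overlapping groups. It entered the test through its inflammation counts and was higher in inflammation than in homeostasis (log2 fold change 4.13 ± 0.61, edgeR adjusted p = 3.00e-05), where the homeostasis libraries held 5, 4, 2 and 0 counts. Ms4a7, a membrane protein of macrophages, averaged 0.468 ± 0.244 CPM in resolution, 3.84 ± 2.01 CPM in inflammation and 0.824 ± 0.353 CPM in homeostasis and was lower in resolution than in inflammation (-3.02 ± 0.43, edgeR adjusted p = 6.31e-05). Ms4a6c, of the same family, stood at 0.206, 0.747, 0.590 and 0.555 CPM in the resolution libraries, 2.10, 1.51, 1.22 and 1.46 CPM in the inflammation libraries and 0.406, 0.431, 0 and 0.0906 CPM in the homeostasis libraries. Resolution was below all inflammation libraries, with a log2 fold change of -1.57 ± 0.50, edgeR adjusted p = 0.0369. That call was lost without any 1 inflammation library or any 1 of resolution libraries 1, 3 and 4 (edgeR adjusted p 0.0517 to 0.122) or when the replicate number entered as a block in all 3 groups (edgeR adjusted p = 0.0647). Aif1 (Iba1), a calcium-binding protein widely used to stain microglia and macrophages, had 9 counts in resolution, 13 in inflammation and 12 in homeostasis, and was not tested.

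As to which members were absent from resolution, 4 of the 47 had at most 3 counts in each of the 4 resolution libraries, a limit that equals 0.140 to 0.166 CPM at these depths. These were Ikzf1, Ccr2, Cx3cr1 and Clec7a. At this limit 1 member (Cx3cr1) was absent from inflammation and 2 (Ccr2 and Clec7a) from homeostasis. The share of all genes within this or the other limits was not computed. With a limit of 0 counts, only Cx3cr1 was absent from resolution, and with a limit of 10 counts 15 members were, among them Ptprc, Tyrobp, Marco and the 3 C1q chains. Ikzf1 and Clec7a are the members that had at most 3 counts in every resolution library and more than 3 in every inflammation library. For Ikzf1, the summed counts of 35 in inflammation and 2 in resolution gave a depth-corrected ratio of 15.8, with an exact 95% interval of 4.06 to 135 that covers counting error only. For Ccr2 the same ratio was 4.51 (0.505 to 213). Clec7a was at least 15.5-fold higher in inflammation than in homeostasis, where 3 counts over the group were taken for its 0. With no filter on low counts, Ikzf1, Clec7a and Fcgr1 were lower in resolution than in inflammation (edgeR adjusted p = 0.0148, 0.0177 and 2.71e-06). No member had 0 counts in all 12 libraries, and most members were low but present in resolution, where Cyba, Cd14 and Lyz2 together made up 60.8 to 65.2% of the summed level.

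Whether the members moved together within inflammation can be described over 4 libraries but not tested. The 41 tested genes did not share 1 order of libraries. Inflammation library 1 had the highest value for 12 of them, library 2 for 11, library 3 for 6 and library 4 for 12, where 27.6%, 18.2%, 22.2% and 32.0% of all tested genes had theirs. After the values were seen, libraries 1 and 2 were set against 3 and 4. Both of libraries 1 and 2 were above both of 3 and 4 for 18 members, and below them for 14, with 9 in neither order, while 25.6% and 25.9% of all tested genes had these orders.

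The genes with libraries 1 and 2 on top included the 3 C1q chains, Mrc1, Msr1, Trem2, Tyrobp, Fcgr3, Spi1, Lyz2 and Ms4a7. The genes with libraries 3 and 4 on top included Clec4e, Irg1, Cybb, Emr1, Cd14, Marco, Itgam and Csf1r. The spread was small for most: the median ratio of the highest to the lowest inflammation library was 1.64, with a range of 1.12 (Fcgr2b) to 8.99 (Clec4e). C1qa varied 4.27-fold, C1qb 4.49-fold and Mrc1 3.74-fold in 1 direction, and Irg1 varied 4.99-fold, Cybb 3.23-fold and Emr1 2.79-fold in the other. Some members kept their inflammation order in the other groups and others had the opposite one. Libraries 1 and 2 were on top in inflammation and in resolution for 5 members, and libraries 3 and 4 for 5. For inflammation and homeostasis these counts were 11 and 5. In resolution, libraries 1 and 2 were on top for 10 members and libraries 3 and 4 for 7, against 25.1% and 26.9% of tested genes. In homeostasis the counts were 16 and 10, against 29.6% and 28.9%. C1qb, C1qc and Lyz2 had libraries 1 and 2 on top in all 3 groups, and Cd53, Clec4e and Irg1 had libraries 3 and 4 on top in all 3. The share of all tested genes that kept an order between groups was not computed. C1qa, Cd14 and Csf1r had opposite orders in inflammation and resolution. Emr1, Itgam, Lcp1, Trem2, Cyba and Cd68 had opposite orders in inflammation and homeostasis. The labels do not say what the library numbers stand for.

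**Figure D4:**
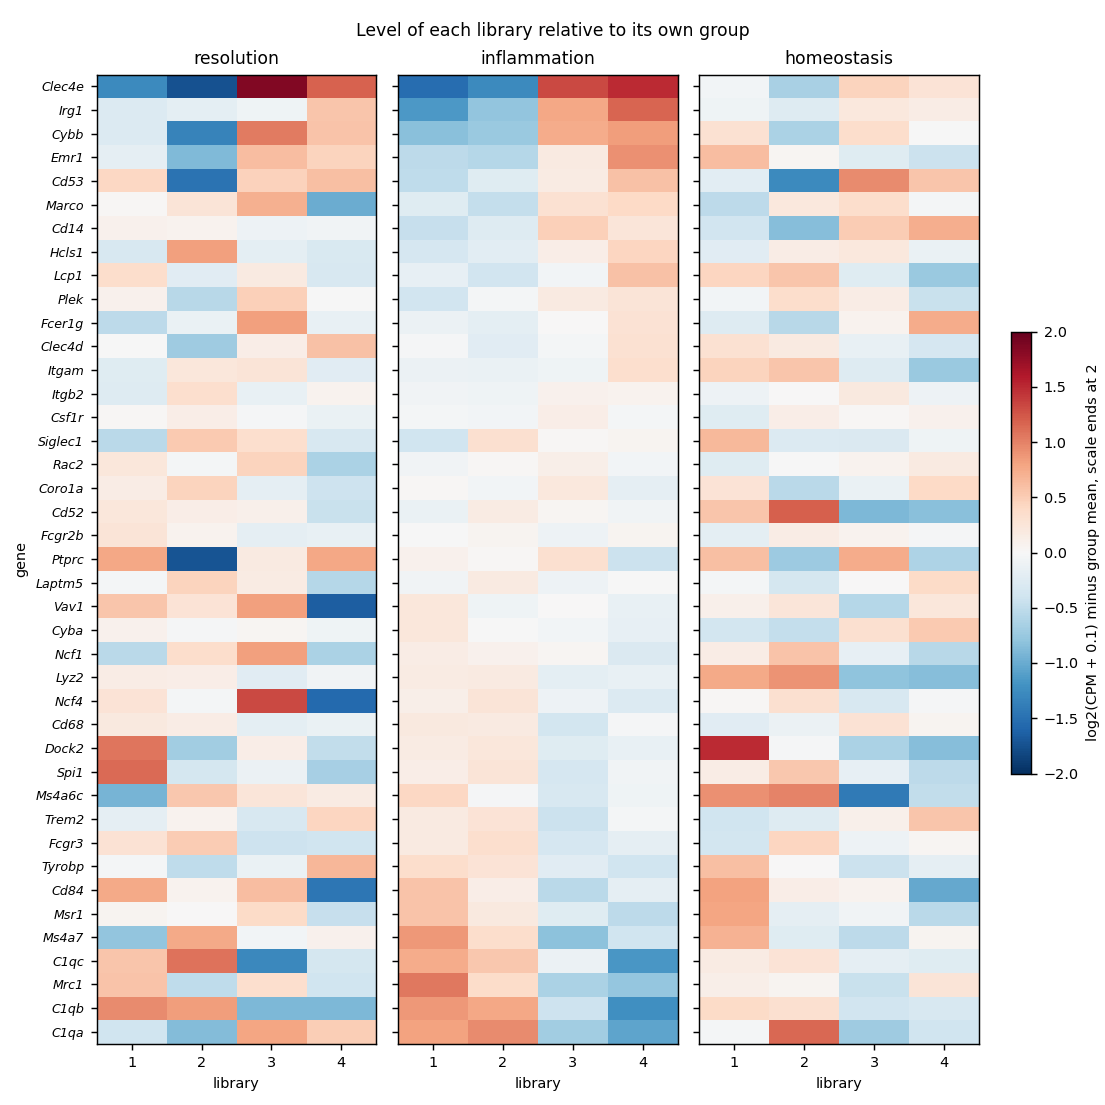
Difference of each library from the mean of its own group, on the log2(CPM + 0.1) scale, for the 41 tested genes (rows) in resolution, inflammation and homeostasis. Rows are sorted by libraries 1 and 2 against 3 and 4 of inflammation, an order made from the plotted values: Clec4e, Irg1 and Cybb at the top have libraries 3 and 4 high, and C1qa, C1qb and Mrc1 at the bottom have libraries 1 and 2 high.

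Among 61 other genes of macrophages and myeloid cells, 43 could be tested. In resolution against inflammation 29 were lower and 1 higher, in inflammation against homeostasis 29 were higher and 1 lower, and in resolution against homeostasis 20 were lower and 8 higher. Of all tested genes, 7.64% were lower and 8.52% higher in resolution against inflammation, and 19.0% were higher and 18.3% lower in inflammation against homeostasis. In resolution against homeostasis 25.8% were lower and 27.5% higher. These shares also apply to the counts of the lists below. Clec4n (Dectin-2), a lectin encoded near Clec4d, stood at 2.37, 1.68, 2.18 and 2.45 CPM in the resolution libraries, 40.9, 38.6, 44.4 and 57.6 CPM in the inflammation libraries and 3.81, 5.17, 2.74 and 2.72 CPM in the homeostasis libraries, with log2 fold changes of -4.38 ± 0.23, edgeR adjusted p = 1.51e-10 for resolution against inflammation and 3.63 ± 0.21, edgeR adjusted p = 2.87e-10 for inflammation against homeostasis. The groups of Clec4n did not overlap. Ctss, the cathepsin of antigen-presenting cells, averaged 4.26 ± 1.57 CPM in resolution, 61.8 ± 9.66 CPM in inflammation and 4.91 ± 1.61 CPM in homeostasis, and Mpeg1, a pore-forming protein of macrophages, averaged 4.36 ± 1.95 CPM in resolution, 53.3 ± 12.9 CPM in inflammation and 13.3 ± 3.85 CPM in homeostasis. The inhibitory receptor Lilrb4 averaged 3.85 ± 1.14 CPM in resolution, 14.4 ± 2.49 CPM in inflammation and 3.70 ± 0.767 CPM in homeostasis. Itgb7 was the gene that was lower in inflammation than in homeostasis (-0.74), and Evi2a the one that was higher in resolution than in inflammation (0.50). Both are named after their values were seen.

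Of 26 tested genes for proteins that act downstream of the ITAM adaptors and integrins, 13 were lower and 0 higher in resolution against inflammation, 11 were higher and 1 lower in inflammation against homeostasis, and 10 were lower and 1 higher in resolution against homeostasis. The exceptions were Bcl10, lower in inflammation than in homeostasis (-0.34), and Vav3, higher in resolution than in homeostasis (1.26). Lcp2 (SLP-76), an adaptor of this pathway, averaged 0.0360 ± 0.0448 CPM in resolution, 2.46 ± 0.551 CPM in inflammation and 0.798 ± 0.451 CPM in homeostasis, a log2 fold change of -5.90 ± 0.62, edgeR adjusted p = 1.62e-06 in resolution against inflammation. The resolution level of Lcp2 was near 0, so the size of this value rests on few counts. Inpp5d, the phosphatase SHIP1 that limits Fc receptor signals, averaged 1.46 ± 0.281 CPM in resolution, 6.41 ± 1.83 CPM in inflammation and 2.52 ± 0.278 CPM in homeostasis (-2.14 ± 0.25, edgeR adjusted p = 4.63e-06), and the adaptor Pik3ap1 averaged 0.430 ± 0.330 CPM in resolution, 4.04 ± 0.545 CPM in inflammation and 1.48 ± 0.690 CPM in homeostasis (-3.22 ± 0.42, edgeR adjusted p = 1.99e-05). Blnk averaged 2.66 ± 0.814 CPM in resolution, 4.00 ± 0.684 CPM in inflammation and 1.70 ± 0.669 CPM in homeostasis, and passed in inflammation against homeostasis (1.22 ± 0.28, edgeR adjusted p = 0.00199) but not in resolution against inflammation (-0.58 ± 0.27, edgeR adjusted p = 0.145).

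The other transcription factors of the myeloid lineage did not share a direction. Of 19 tested, 3 were lower and 6 higher in resolution against inflammation, 5 were higher and 5 lower in inflammation against homeostasis, and 4 were lower and 6 higher in resolution against homeostasis. Irf8, a partner of PU.1, averaged 0.505 ± 0.333 CPM in resolution, 1.86 ± 0.192 CPM in inflammation and 0.284 ± 0.0740 CPM in homeostasis, and was lower in resolution than in inflammation (-1.87 ± 0.40, edgeR adjusted p = 0.00370). Mitf averaged 11.1 ± 2.85 CPM in resolution, 7.29 ± 0.944 CPM in inflammation and 3.57 ± 0.481 CPM in homeostasis, and was higher in resolution than in inflammation (0.61 ± 0.19, edgeR adjusted p = 0.0385) and higher in inflammation than in homeostasis (1.03 ± 0.20, edgeR adjusted p = 0.000553). Runx3 averaged 0.152 ± 0.0919 CPM in resolution, 0.318 ± 0.186 CPM in inflammation and 1.42 ± 0.113 CPM in homeostasis and Elf4 averaged 13.5 ± 3.10 CPM in resolution, 16.6 ± 2.77 CPM in inflammation and 29.5 ± 5.12 CPM in homeostasis, and both were lower in inflammation than in homeostasis, with log2 fold changes of -2.15 for Runx3 and -0.83 for Elf4.

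The ligands of the myeloid receptors summed to 5779 to 7281 CPM in resolution, 6786 to 7126 CPM in inflammation and 4416 to 5547 CPM in homeostasis. Of 15 tested, 5 were lower and 1 higher in resolution against inflammation, 7 were higher and 2 lower in inflammation against homeostasis, and 6 were lower and 7 higher in resolution against homeostasis. Csf1, the growth factor that binds Csf1r and which is named here after its values were seen, averaged 2063 ± 388 CPM in resolution, 2338 ± 110.0 CPM in inflammation and 2326 ± 270.1 CPM in homeostasis. None of its comparisons passed, with log2 fold changes of -0.18 ± 0.14, edgeR adjusted p = 0.368 for resolution against inflammation, 0.01 ± 0.14, edgeR adjusted p = 0.973 for inflammation against homeostasis and -0.17 ± 0.14, edgeR adjusted p = 0.298 for resolution against homeostasis. Il34, the other Csf1r ligand, was lower in resolution than in inflammation and than in homeostasis. Il34 did not pass in inflammation against homeostasis. The monocyte attractant Ccl7 averaged 568 ± 48.1 CPM in resolution, 523 ± 35.3 CPM in inflammation and 269 ± 9.17 CPM in homeostasis, Gas6 (a ligand of the receptor Mertk) averaged 1331 ± 232 CPM in resolution, 1352 ± 196 CPM in inflammation and 631 ± 89.2 CPM in homeostasis and complement C3 averaged 643 ± 165 CPM in resolution, 849.7 ± 266 CPM in inflammation and 247 ± 102 CPM in homeostasis. All 3 were higher in inflammation than in homeostasis, at 0.96, 1.10 and 1.79, and none passed in resolution against inflammation. Pros1, another Mertk ligand, was the one higher in resolution than in inflammation (0.81). Tnfsf11 (RANKL), the factor that drives osteoclast formation, averaged 5.32 ± 1.60 CPM in resolution, 7.44 ± 2.32 CPM in inflammation and 16.2 ± 2.65 CPM in homeostasis and was lower in inflammation than in homeostasis (-1.12 ± 0.23, edgeR adjusted p = 0.000894).

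Activation markers of macrophages were split. Of 23 tested, 12 were lower and 2 higher in resolution against inflammation, 9 were higher and 4 lower in inflammation against homeostasis, and 10 were lower and 7 higher in resolution against homeostasis. Arginase 1, encoded by Arg1, stood at 0.567, 0.467, 0 and 0.324 CPM in the resolution libraries, 65.4, 71.4, 36.9 and 34.3 CPM in the inflammation libraries and 0.0508, 0.215, 0 and 0.181 CPM in the homeostasis libraries. Inflammation alone was above 1 CPM, and the log2 fold changes were -7.26 ± 0.43, edgeR adjusted p = 4.85e-10 for resolution against inflammation and 8.60 ± 0.48, edgeR adjusted p = 1.61e-10 for inflammation against homeostasis. Arg1 entered the test through its inflammation counts. Mmp12, the macrophage elastase, averaged 7.84 ± 1.77 CPM in resolution, 104 ± 24.0 CPM in inflammation and 3.77 ± 1.21 CPM in homeostasis, and the collagenase Mmp8 averaged 0.583 ± 0.226 CPM in resolution, 27.4 ± 2.49 CPM in inflammation and 0.389 ± 0.331 CPM in homeostasis. Apoe, a lipid carrier abundant in many macrophages, had the reverse order, at 13.2 ± 2.90 CPM in resolution, 5.53 ± 0.975 CPM in inflammation and 34.6 ± 6.72 CPM in homeostasis, and was higher in resolution than in inflammation (1.25 ± 0.19, edgeR adjusted p = 0.000144), as was Cd80 (0.79). Of 6 class II antigen presentation genes tested, H2-DMa, H2-DMb1 and H2-DMb2 were higher in inflammation and in resolution than in homeostasis, and Cd74 was lower in resolution than in inflammation (-3.24 ± 0.64, edgeR adjusted p = 0.00173).

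Several defining markers of lymphocytes, dendritic cells and mast cells were at 0. Of 15 T cell markers, Cd3e, Cd3g, Cd8a, Cd8b1 and Cd2 had 0 counts in all libraries, and the list summed to 3.72 to 4.72 CPM in resolution, 4.60 to 9.46 CPM in inflammation and 1.94 to 5.05 CPM in homeostasis. The B cell marker Cd79b, the NK cell markers Ncr1, Gzma and Klrk1, the dendritic cell markers Cd209a and Siglech, the mast cell marker Fcer1a and the neutrophil marker Retnlg were also at 0 in all libraries. The 9 dendritic cell markers summed to at most 3.01 CPM in any library. The 8 NK cell markers reached 0.0908 to 1.12 CPM in resolution, 0.532 to 1.41 CPM in inflammation and 3.04 to 10.1 CPM in homeostasis. The T cell receptor gene Trac averaged 2.90 ± 0.690 CPM in resolution, 5.53 ± 1.77 CPM in inflammation and 2.19 ± 1.12 CPM in homeostasis. It was higher in inflammation than in homeostasis (1.30 ± 0.30, edgeR adjusted p = 0.00233) and lower in resolution than in inflammation (-0.93 ± 0.30, edgeR adjusted p = 0.0395). The B cell receptor inhibitor Cd22 averaged 0.0936 ± 0.0356 CPM in resolution, 0.826 ± 0.237 CPM in inflammation and 0.0380 ± 0.0455 CPM in homeostasis, and was likewise higher in inflammation than in homeostasis (4.11 ± 0.64, edgeR adjusted p = 5.75e-05) and lower in resolution than in inflammation (-3.06 ± 0.57, edgeR adjusted p = 0.00105). Cd22 entered the test through its inflammation counts, and its levels in the other groups were near 0. Granzyme B, encoded by Gzmb and found in cytotoxic lymphocytes, averaged 0.363 ± 0.256 CPM in resolution, 0.669 ± 0.326 CPM in inflammation and 5.56 ± 3.14 CPM in homeostasis, and was lower in inflammation than in homeostasis (-3.05 ± 0.48, edgeR adjusted p = 5.45e-05).

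Of 15 neutrophil markers 3 were tested, and the list summed to 71.9 to 91.5 CPM in resolution, 158 to 206 CPM in inflammation and 16.3 to 53.4 CPM in homeostasis. Mmp9, a gelatinase also made by other cells, averaged 17.9 ± 5.45 CPM in resolution, 120.2 ± 22.9 CPM in inflammation and 11.6 ± 8.75 CPM in homeostasis and was lower in resolution than in inflammation (-2.74 ± 0.50, edgeR adjusted p = 0.00358). S100a8 averaged 16.7 ± 3.31 CPM in resolution, 15.8 ± 4.67 CPM in inflammation and 3.08 ± 1.05 CPM in homeostasis and Camp averaged 44.3 ± 3.49 CPM in resolution, 43.3 ± 1.59 CPM in inflammation and 17.3 ± 8.58 CPM in homeostasis, and neither passed in that comparison. The 6 platelet markers summed to 46.3 to 57.8 CPM in resolution, 147 to 191 CPM in inflammation and 19.4 to 29.5 CPM in homeostasis. Pf4, also a macrophage chemokine, was a minor part of these sums, at 0.897 ± 0.271 CPM in resolution, 21.3 ± 4.20 CPM in inflammation and 1.02 ± 0.801 CPM in homeostasis. Ppbp and Pf4 were higher in inflammation than in homeostasis and lower in resolution than in inflammation. Ppbp was also higher in resolution than in homeostasis. Of 6 osteoclast markers tested, Acp5 and Dcstamp were lower in resolution than in inflammation, at -1.99 and -3.72, and 4 were higher in inflammation than in homeostasis. In that second comparison Nfatc1 was lower and Itgb3 did not pass. In resolution against homeostasis Ctsk and Atp6v0d2 were higher, while Acp5 and Nfatc1 were lower. The 8 endothelial markers summed to 11.0 to 17.0 CPM in resolution, 7.39 to 15.9 CPM in inflammation and 14.0 to 22.5 CPM in homeostasis, and the 8 mast cell and the 6 red cell markers each stayed at or below 1.32 CPM in every library. The part of other cells in the members' values was not tested.

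Some fibroblast markers differed as well. Of 12 tested, Col1a1, Col1a2, Col3a1 and Lum were lower and Pdgfra and Thy1 higher in resolution against inflammation. In inflammation against homeostasis 6 were lower and Dcn was higher, and in resolution against homeostasis 9 were lower and Dcn was higher. The part of this in the myeloid values was not tested. Exons of 10 members overlap another annotated gene, and apart from Csf1r and Itgam these are Cd52, Lcp1, Plek, Dock2, Cx3cr1, Fcgr2b, Ncf1 and Ms4a6c, each with a gene on the opposite strand from which its reads cannot be told apart without a strand setting.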

How the data were processed

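The values in the deposited table are estimated counts (not all are whole) per gene symbol and library, which the authors left unnormalized, per the file headers. The genome build was GRCm38.p3, per the submitters' processing notes. Of the 36930 entries, 13 without values were dropped and 42 repeated entries of 34 symbols were summed, which left 36875 symbols. Of the values, 1.43% were not whole, and all were rounded. For the aligner, counting tool, strand setting and annotation nothing was stated in the sources used. Library totals were 18120745 to 34971537 counts.

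Genes were filtered with filterByExpr on group, scaled by TMM and tested with edgeR 4.0.16 (R 4.3.3; robust quasi-likelihood F test) on the 12 libraries together, with group as the single term. Adjusted p-values are Benjamini-Hochberg over all 15049 tested genes, with a threshold of 0.05. Intervals are exact 95% intervals of counting error. DESeq2 1.42.0 and the other alternatives are given in the closing section. Levels per kilobase use the union of exons in the GENCODE annotation of GRCm38, and promoter windows are from RefSeq (GRCm38.p6).

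Full values were given for up to 3 members of each role with the highest mean in inflammation, for members absent from resolution but present in every inflammation library, and for members going against the majority. From each other list, the up to 4 genes with the smallest adjusted p in inflammation against homeostasis were named, with other cell types' markers at 0. Itgb7, Evi2a, Bcl10, Vav3, Pros1, Cd80, Cd74, Csf1, Ccl2, Trac, Cd22 and Gzmb were named after their values were seen. So were Il34, Ctsk, Atp6v0d2, Nfatc1 and Itgb3. Of 276 other list symbols, 273 were found as written and 1 by an older symbol. The members and lists were chosen with earlier results of these data known.

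Same-numbered libraries of resolution and inflammation deviated from their group means together (r = 0.139, 0.126, 0.214 and 0.141 over tested genes). Differently numbered libraries of these 2 groups had r from -0.251 to 0.200, and homeostasis library 4 with resolution library 2 had 0.355. These values do not establish a pairing, and the labels name none. An added fit treated resolution and inflammation as paired by number. Homeostasis was not paired with either. No 2 libraries of a group agreed within sampling noise.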

Additional observations from a re-analysis of the deposited data

Results flagged for a closer look

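Of 123 groups of 4 libraries (41 tested genes in 3 groups), 4 held a library whose gap to the nearest other was over 0.829 of the range, a rule that chance meets in about 1 of 20 groups. Cd53 was lowest in resolution library 2, at 0.794 CPM, where the other resolution libraries stood at 3.20 to 3.65 CPM. Hcls1 was highest in that same library, at 1.03 CPM, where the others stood at 0.412 to 0.454 CPM. Csf1r was highest in inflammation library 3, at 44.9 CPM, where the others stood at 39.3 to 39.9 CPM. Itgam was highest in inflammation library 4, at 67.7 CPM, where the others stood at 49.3 to 50.7 CPM.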

How the results depend on the processing

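Of the 41 tested members, the number lower in resolution than in inflammation was 39, with 37 to 39 when 1 library was left out, 38 with the replicate block in all 3 groups and 40 with the replicate block in these 2 groups, an alternative chosen after seeing the data. The number higher in inflammation than in homeostasis was 36, with 32 to 36 when 1 library was left out, 35 with DESeq2 and 36 with the replicate block. The number lower in resolution than in homeostasis was 26, with 24 to 28 when 1 library was left out and 26 with the replicate block. The number higher in that comparison was 2, with 1 to 3 when 1 library was left out. Some of these refits also tested Fcgr1, and with it the highest counts were 40 lower in resolution than in inflammation and 37 higher in inflammation than in homeostasis. The count of members absent from resolution was 4 with a limit of 3 counts, 1 with 0 counts and 15 with 10. Directions changed for values that had not passed. Clec4e in inflammation against homeostasis was -0.49 with the replicate block, -0.47 to 0.39 over the fits that left out 1 library (below 0 without homeostasis library 2, at -0.14, or inflammation library 3 or 4) and -0.27 with homeostasis libraries 3 and 4 as sole controls. With that pair of controls Cyba was -0.13 in the same comparison, and Dock2 was 1.03 and Plek 0.13 in resolution against homeostasis. With homeostasis libraries 1 and 2, Cd14 was 0.17 and Cyba 0.14 in resolution against homeostasis. There Dock2 was -0.91 to 0.57 when 1 library was left out, above 0 without homeostasis library 1, and Plek -0.26 to 0.10, above 0 without homeostasis library 2 or resolution library 2. The cause was not tested. The replicate block in resolution and inflammation alone changed no call in resolution against inflammation other than that of Clec4e. At most 10 counts in each resolution library lay behind the resolution values of 15 members. Of the 41, 31 were higher in inflammation than in homeostasis with homeostasis libraries 1 and 2 as sole controls and 32 with libraries 3 and 4. In resolution against homeostasis 24 were lower with either pair. Clec4e and Cybb lost their calls with libraries 1 and 2 (edgeR adjusted p = 0.236 and 0.213) and with libraries 3 and 4 (edgeR adjusted p = 0.0829 and 0.0837). With libraries 3 and 4, C1qa (-1.66, edgeR adjusted p = 0.0791), Msr1 (-0.59, edgeR adjusted p = 0.219), Cd52 and Cd53 also lost theirs. With that pair Ms4a6c (3.27, edgeR adjusted p = 0.00445), Cd68 (-0.51, edgeR adjusted p = 0.0400), Cd14 (-1.03, edgeR adjusted p = 0.000278) and Cyba (-0.705, edgeR adjusted p = 0.000311) gained one.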
